A study of Mus musculus with 38 samples.

Results

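The 6 libraries described here hold ribosome footprints from streptavidin pulldowns of mouse cortical neurons that expressed Pan-TurboID, and they compare depolarization by KCl with rest. They were chosen by sample title, as the 3 pulldown libraries labelled depolarized and the 3 labelled resting, and are 6 of the 38 libraries of the series. All 6 came from primary cortical neurons of CD-1 mouse embryos, kept 12 days in culture and transduced with a lentivirus whose doxycycline-inducible promoter drives Pan-TurboID, a biotin ligase without a localization signal. In PL-Ribo-seq, proteins near the ligase are biotinylated, ribosome complexes are captured on streptavidin, and the RNA fragments they protect are sequenced. All cultures received cycloheximide, which stops elongation, for 2 min and biotin for 30 min. The depolarized neurons were first silenced for 2 h with tetrodotoxin, a sodium channel blocker, and DL-AP5, an NMDA receptor blocker, then given 55 mM KCl for 1 h and left in fresh medium for 30 min with biotin and both blockers. Whether the resting neurons were silenced is not given by the labels, so silencing and KCl cannot be told apart in this comparison. Each sample pooled 4 dishes.

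Raised extracellular KCl depolarizes the neuronal membrane, opens voltage-gated calcium channels and sends calcium signals to the nucleus through calmodulin kinases and the MAP kinase cascade. Transcription factors already present, among them CREB, SRF and MEF2, then switch on immediate early genes without new protein synthesis. The products of these genes are either further transcription factors, such as the Fos, Egr and Nr4a families, or effectors that act at synapses and on signalling, such as Arc. A footprint count reports ribosomes on an mRNA, so a change in it can come from more mRNA or from more ribosomes per mRNA, and these data do not separate them.

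The pulldown libraries held 9785628 to 35643247 counted reads, of which 3181080 to 14636018 fell in the coding sequences (CDS) used here. KCl library 1 stood apart. Of its 21160971 reads, 3181080 fell in these CDSs, and 4.94% of its transcript counts lay in 5′ UTRs, the lowest share of the 6. Counts without it are given beside several results. The labelled cell type was checked against markers. Levels are given as CPM, counts scaled by library size. The summed level of 10 pan-neuronal markers was 7311 to 9990 CPM over the 6 libraries, that of excitatory neuron markers 1588 to 1937 CPM and that of inhibitory neuron markers 1759 to 3068 CPM. For glia, the sums were lower. Astrocyte markers summed to 818 to 1519 CPM, oligodendrocyte markers to 101 to 352 CPM and microglia markers to 21.6 to 40.4 CPM. Progenitor markers summed to 734 to 1353 CPM. S100b, Mog and Mobp were at 0 in all 6 libraries. Of the 10 genes in each of the 7 marker lists, 9 astrocyte, 7 oligodendrocyte, 1 microglia and all other genes were tested. None passed, and for each list the ranges of the resting and KCl libraries overlapped. Under alternatives some did. Of the inhibitory markers, 2 were higher with the replicate number as a block and 1 in 6 other fits, 1 excitatory marker was lower in 4 fits, and 1 pan-neuronal marker was lower with the block and 1 higher by DESeq2. In the test used here 9 of 10 inhibitory markers had positive log2 fold changes (median 0.35), and their summed level was higher after KCl in the 3 same-numbered pairs by 0.75, 0.08 and 0.28 on the log2 scale. The part of these markers in the results below was not tested. In such bulk samples, fewer cells of a type and less RNA per cell cannot be told apart.

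KCl changed the footprint level of 654 of 13003 genes tested (5.03%) in the Pan-TurboID pulldowns, with 244 higher (1.88%) and 410 lower (3.15%), by edgeR's quasi-likelihood test at an adjusted p under 0.05. Of the 14 genes that rose over 8-fold, 10 were members of the list of immediate early factors, 2 were the activity effectors Arc and Gadd45g, and 2, Nfkbiz and Atoh8, were in no list and are named after their values were seen. More genes fell than rose, and 1 gene, Mapk6, fell over 8-fold. Among the genes that rose, 141 (57.8%) did so by more than 2-fold, with a median log2 fold change of 1.09. Among those that fell, 243 (59.3%) did so by more than 2-fold, with a median of -1.07. The median over all genes tested was 0.03, a value that the scaling of the libraries largely fixes. A rise or fall is thus relative to the other genes, and a general change in footprint level would not show. The 3 same-numbered pairs of libraries moved in 1 direction for 243 of the 244 higher and all 410 lower genes. Resting and KCl libraries did not overlap for 235 and 409 of them, where 25.2% of all genes tested had groups that did not overlap. The genes were called on these same libraries, so the counts of pairs and of groups that do not overlap are not separate support. Without replicate 1, 2 or 3 in both conditions the count was 266, 199 and 199, and with 1 library left out at a time it was 309 to 559. Without KCl library 1 it was 559, split into 275 higher and 284 lower, without KCl library 2 or 3 it was 389 and 397, and without resting library 1, 2 or 3 it was 336, 355 and 309.

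**Figure D1:**
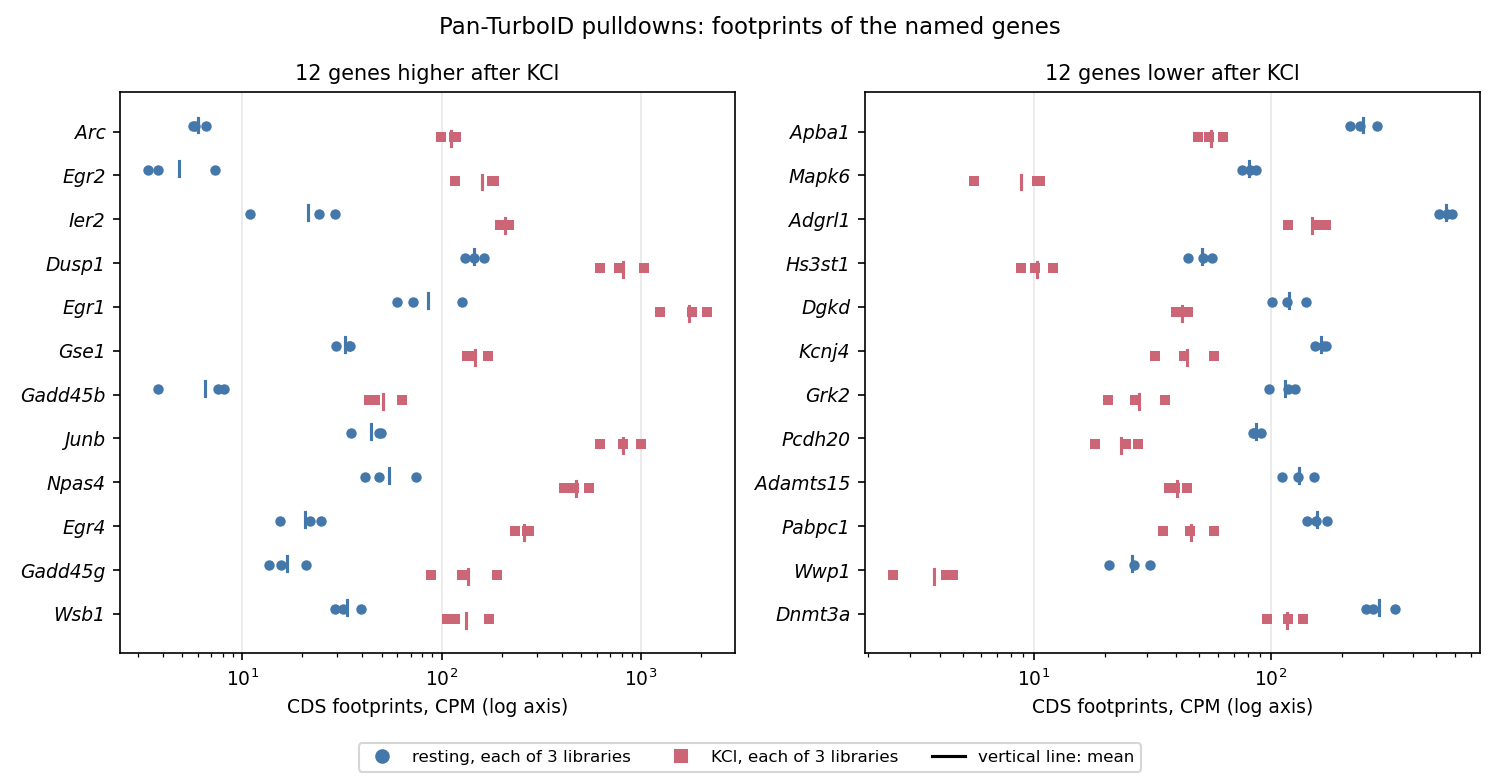
Footprints in the CDS (CPM, log axis) of the 12 genes per direction that had the lowest p, in each of the 3 resting (blue circles) and 3 KCl (red squares) Pan-TurboID pulldowns, with vertical lines at the means. For all 24 genes the resting and KCl libraries do not overlap. Arc lies at 5.68 to 6.57 CPM at rest and 99.9 to 118 CPM after KCl, and Mapk6 at 75.8 to 86.4 CPM and 5.58 to 10.6 CPM.

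The immediate early factors, a list made up mostly but not only of transcription factors, rose most. Of 34 listed genes, all tested, 20 rose (58.8%, against 1.88% of all genes tested) and 0 fell, and the list's median log2 fold change was 1.98. This and the other lists were chosen with earlier results of these data known, so their counts are not independent evidence. Egr2, a zinc finger factor, had 3.8, 7.34 and 3.37 CPM in resting libraries 1 to 3 and 183, 117 and 180.0 CPM in KCl libraries 1 to 3. Its lowest KCl library was over 10 times its highest resting one, and the fold change was 35.1 (log2 5.13 ± 0.37, SE; edgeR adjusted p = 8.598e-10). Egr1, of the same family, had 59.7, 71.5 and 126 CPM at rest and 1242, 1814 and 2145 CPM after KCl, a 20.2-fold rise (edgeR adjusted p = 1.316e-08). Egr4 rose 12.5-fold from a mean of 20.7 ± 4.79 to 258 ± 21.9 CPM (SD, n = 3 each). Egr3 rose less, by 2.42 on the log2 scale. All 4 Egr genes were thus higher in each KCl library than in any resting one.

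The AP-1 genes did not move as 1 group. Fosb had 8.88, 14.9 and 18.2 CPM at rest and 315, 429 and 503 CPM after KCl, a 29.5-fold rise. Junb rose 18.3-fold, from 35.2, 49.7 and 48.5 CPM to 621, 809 and 1006 CPM. Fos rose 10.3-fold (log2 3.36 ± 0.42), Jun by 2.31 and Fosl1 by 2.60 on the log2 scale. Jund and Fosl2, members of the same dimer family, gave log2 fold changes of -0.03 and 0.05 (edgeR adjusted p = 0.9841 and 0.9619). Fosl1 was low, at a mean of 0.985 CPM at rest, and its CDS overlaps exons of Ccdc85b on the other strand, so its counts are uncertain.

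The nuclear receptors of the Nr4a family also differed among themselves. Nr4a1 rose by 3.70 ± 0.40 on the log2 scale, from a mean of 75.5 ± 34.5 to 981 ± 141 CPM. Nr4a2 and Nr4a3 gave 0.63 ± 0.28 and 0.31 ± 0.22 (edgeR adjusted p = 0.2123 and 0.494), with overlapping groups. Npas4, a neuron-specific factor that depends on calcium entry, had 41.2, 48.3 and 74.4 CPM at rest and 549, 409 and 461 CPM after KCl, an 8.62-fold rise. Ier2, an early response nuclear protein, rose 9.76-fold, from 11, 24.2 and 29.1 CPM to 215, 196 and 218 CPM. The other members that rose were Klf4, Klf10, Btg2, Atf3, Cebpb, Tiparp, Maff and Ier5, with log2 fold changes from 1.33 (Ier5) to 3.22 (Klf4). The CDS of Cebpb overlaps exons of Tmem189 on the other strand. The 14 members that did not pass had log2 fold changes from -0.53 (Klf2) to 0.79 (Csrnp1), and Srf, Crem, Per1, Per2, Klf6 and Nfil3 were among them. With 1 replicate or library left out, 15 to 19 members of the list rose. Over these 9 fits the call was lost in 9 for Atf3, in 8 for Fosl1, in 7 for Maff and in 5 for Jun.

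Promoters were searched for the binding sequence of CREB, the cyclic AMP response element. It was written as TGACGTCA, a palindrome, and as its shorter forms TGACG and CGTCA, which are part of it and are each other's reverse complement, in the 250 bases before the first start site listed per gene by RefSeq (GRCm38.p6). Of the 12 genes named for the smallest p among those that rose, 9 had an entry, 2 of the 9 held TGACGTCA (Dusp1 and Wsb1) and 5 held a short form. Arc, Ier2 and Egr1 had no entry. Of all 244 genes that rose, 201 had an entry, and 4.98% of these held TGACGTCA and 33.3% a short form. Of the 410 that fell, 337 had an entry, and the shares were 4.75% and 30.9%. Over all 32851 promoters of the table the shares were 1.55% and 17.8%. Of the genes tested, 78.9% had an entry, and 2.96% and 27.8% of these held the motifs. Genes without an entry are missing from these shares, which are a description without a test. The element is not shown to be particular to the genes that rose. The sequences below are shown because they give the full element in 3 genes that rose, and its short forms in 3 others. Each runs 5′ to 3′ and ends at the base before the start site, with the motifs in capitals: Dusp1 (chr17:26508473-26508722, minus strand), Wsb1 (chr11:79254696-79254945, minus), Plk2 (chr13:110394794-110395043, plus), Fos (chr12:85473640-85473889, plus), Npas4 (chr19:4989972-4990221, minus) and Egr4 (chr6:85513590-85513839, minus).
Dusp1 promoter: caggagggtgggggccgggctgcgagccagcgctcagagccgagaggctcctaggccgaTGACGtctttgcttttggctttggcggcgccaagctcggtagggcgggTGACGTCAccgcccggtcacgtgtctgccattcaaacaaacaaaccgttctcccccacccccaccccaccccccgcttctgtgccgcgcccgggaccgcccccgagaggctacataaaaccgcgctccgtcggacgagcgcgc
Wsb1 promoter: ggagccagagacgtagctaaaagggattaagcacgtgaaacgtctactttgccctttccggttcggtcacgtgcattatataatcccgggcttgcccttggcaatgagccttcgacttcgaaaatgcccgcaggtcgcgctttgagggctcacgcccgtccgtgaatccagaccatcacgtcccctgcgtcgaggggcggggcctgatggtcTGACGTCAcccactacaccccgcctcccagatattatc
Plk2 promoter: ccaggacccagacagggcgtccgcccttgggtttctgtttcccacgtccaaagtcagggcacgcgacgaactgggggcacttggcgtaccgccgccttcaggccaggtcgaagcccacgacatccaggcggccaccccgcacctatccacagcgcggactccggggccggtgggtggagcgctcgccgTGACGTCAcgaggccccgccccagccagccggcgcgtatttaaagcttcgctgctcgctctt
Fos promoter: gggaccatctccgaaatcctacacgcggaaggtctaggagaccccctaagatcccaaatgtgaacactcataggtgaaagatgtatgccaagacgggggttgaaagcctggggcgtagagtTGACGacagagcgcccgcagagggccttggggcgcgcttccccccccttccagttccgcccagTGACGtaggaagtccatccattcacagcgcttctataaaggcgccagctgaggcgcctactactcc
Npas4 promoter: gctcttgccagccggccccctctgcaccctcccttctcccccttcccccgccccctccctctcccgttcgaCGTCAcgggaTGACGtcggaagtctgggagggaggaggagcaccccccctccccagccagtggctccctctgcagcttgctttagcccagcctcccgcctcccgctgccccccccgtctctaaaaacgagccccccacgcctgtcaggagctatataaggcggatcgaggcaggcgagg
Egr4 promoter: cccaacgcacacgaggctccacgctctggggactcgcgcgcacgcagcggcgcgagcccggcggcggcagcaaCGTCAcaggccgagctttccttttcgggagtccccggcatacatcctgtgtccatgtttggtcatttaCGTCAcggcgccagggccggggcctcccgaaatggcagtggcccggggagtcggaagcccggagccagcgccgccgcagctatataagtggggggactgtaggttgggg
The full element began 143 bases before the start in Dusp1, which also held a short form at 191 bases, 38 bases in Wsb1 and 62 bases in Plk2. The short forms began 129 and 66 bases before the start in Fos, 179 and 169 bases in Npas4, and 177 and 109 bases in Egr4. Egr2, Gse1, Gadd45b and Gadd45g held neither form in this window.

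Among the effectors of neuronal activity, 6 of 27 listed genes rose and 1 fell (25.9% called, against 5.03% of all genes tested), with a median log2 fold change of 0.70. Arc, a cytoskeleton-associated protein that takes part in AMPA receptor endocytosis, had 6.57, 5.68 and 5.82 CPM at rest and 99.9, 115 and 118 CPM after KCl. This was an 18.3-fold rise (log2 4.20 ± 0.30, SE; edgeR adjusted p = 8.242e-10) with little spread in either group. Gadd45g and Gadd45b, small stress and DNA repair proteins, rose 8.19-fold and 7.82-fold. Nptx1, a secreted pentraxin that clusters AMPA receptors, rose by 1.97 ± 0.24 on the log2 scale, and Plk2, a kinase of synaptic scaling, by 1.18 ± 0.19. Trib1 rose by 1.36, a call lost without KCl library 3 or replicate 3. Inhba, which encodes an activin subunit, fell from a mean of 26.3 ± 10.5 to 7.1 ± 2 CPM (log2 -1.92). The call for Inhba was lost without replicate 2 or 3, without KCl library 2 or 3 and without resting library 2.

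Several effectors known to follow activity did not pass. Bdnf, a neurotrophin, gave a log2 fold change of -0.26 ± 0.24, with 79.6 ± 16.2 CPM at rest and 66.4 ± 21.9 CPM after KCl. Scg2 and Vgf, secretory granule proteins, gave -0.02 ± 0.19 and -0.22 ± 0.33. Homer1, a postsynaptic scaffold, gave 0.73 ± 0.46 and Nptx2 0.23 ± 0.42. The resting and KCl libraries overlapped for all 5 of these genes. The counts here follow the longest transcript of each gene, so short activity-dependent isoforms of Homer1 and promoter-specific transcripts of Bdnf were not separated.

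Among the phosphatases and inhibitors that limit MAP kinase and related signalling, 4 of 20 rose and 2 fell, with a median of 0.08. The share called was 30%, against 5.03% of all genes tested. Dusp1, a nuclear MAP kinase phosphatase, had 131, 145 and 163 CPM at rest and 627, 780.1 and 1036 CPM after KCl, a 5.56-fold rise. Dusp14 rose by 1.91, Sik1, a kinase that restrains CREB coactivators, by 1.73 and Dusp6 by 0.96 on the log2 scale. The call for Dusp6 was lost without KCl library 3, resting library 1 or 3, or replicate 2 or 3. Dusp8 and Spred2 fell by 0.70 and 1.01. The genes Dusp4, Spry2, Spry4 and Rgs2 did not pass. Neither fall was called with the trend of each library with CDS length removed, with the 6 libraries alone, or in 8 of the 9 fits with 1 replicate or library left out, the exception being that without KCl library 2. Without KCl library 1 the list had 5 higher and 0 lower members.

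Wsb1 and Gse1 were also among the genes with the smallest p. Wsb1, a substrate receptor of a ubiquitin ligase, had 29.2, 32.2 and 39.4 CPM at rest and 173, 117 and 107 CPM after KCl. Gse1, a nuclear protein found with histone demethylase complexes, went from 34.9, 29.6 and 34.2 CPM to 170.4, 134 and 137 CPM, a 4.44-fold rise. Its CDS overlaps exons of 1700016A09Rik on the other strand.

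**Figure D2:**
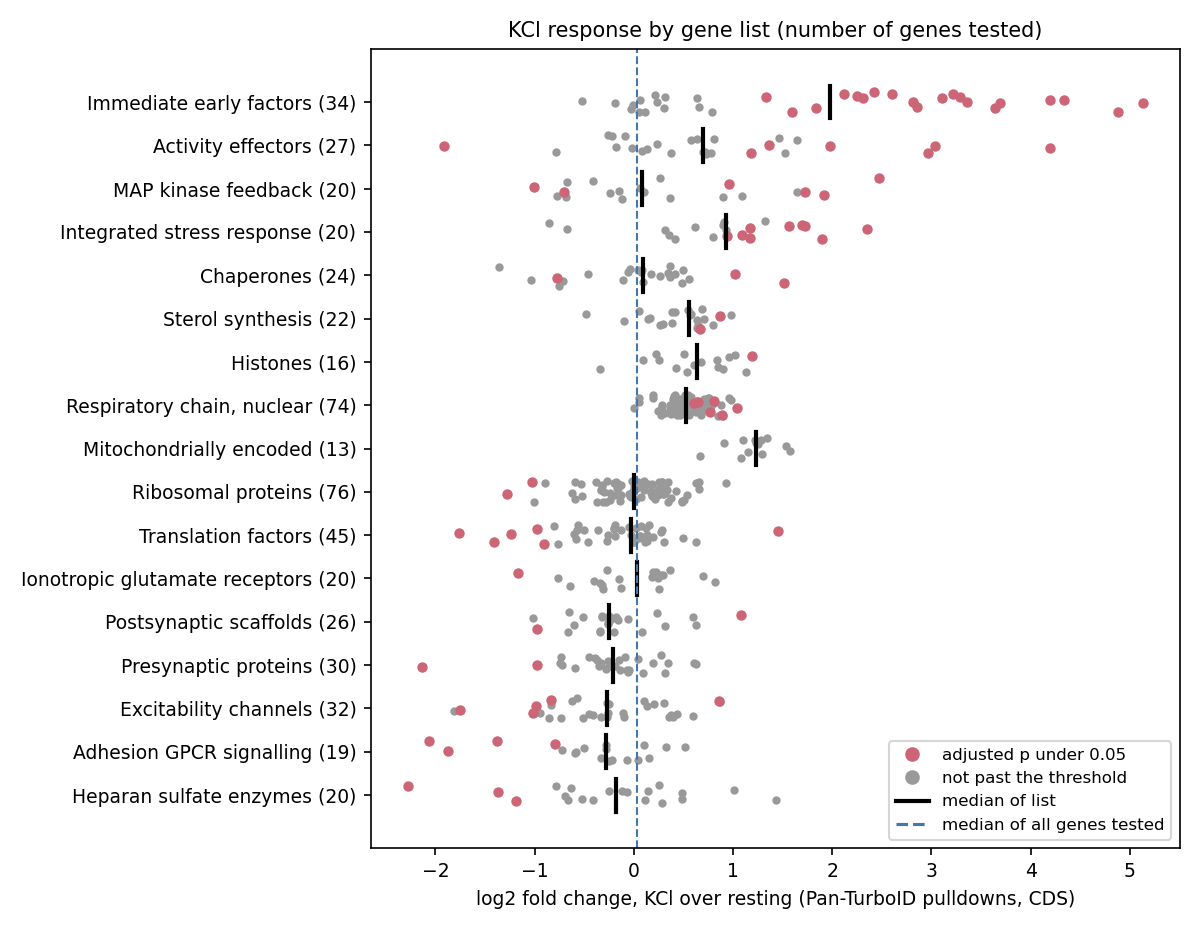
The log2 fold change (KCl over resting, Pan-TurboID pulldowns, CDS) of every tested gene of 17 lists, with genes past an adjusted p of 0.05 in red, list medians as black bars and the median of all genes tested (0.03) as a dashed line. Immediate early factors (median 1.98) and stress response genes (0.93) lie to the right, and all 13 mitochondrially encoded genes are above 0 without passing the threshold.

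Genes of the integrated stress response also rose. In this response, phosphorylation of eIF2 lowers general initiation while mRNAs with upstream open reading frames, Atf4 first among them, are translated more. Of 20 listed genes, 9 rose (45%, against 1.88% of all genes tested) and 0 fell, with a median log2 fold change of 0.93. Ppp1r15a, which directs a phosphatase to eIF2, rose by 2.35 ± 0.34 on the log2 scale, from 13.5 ± 1.49 to 69.1 ± 18.2 CPM. Atf4, the central transcription factor, rose by 1.56 ± 0.35, from 49.7 ± 16.5 to 146 ± 19.8 CPM (edgeR adjusted p = 0.008451). Its groups did not overlap. Ddit3 (1.72), Trib3 (1.89), Sesn2 (1.69), Atf5 (1.17), Ddit4 (1.17), Eif2ak3 (1.09), which encodes the eIF2 kinase PERK, and Psat1 (0.94), an enzyme of serine synthesis, rose as well. Asns, Slc7a5 and Aldh18a1, also targets of ATF4, gave 0.41, 0.31 and 0.36 and did not pass, and Eif2ak4 gave -0.67. With 1 replicate or library left out, 2 to 8 members rose, the fewest without replicate 3, the alternatives with all 24 libraries gave 8 to 13, and the 6 pulldowns alone gave 6. Atf4 lost its call without replicate 1 or 3 and without resting library 1. Atf5, Ddit3, Ddit4, Eif2ak3, Psat1 and Trib3 also lost theirs in at least 1 fit with a replicate or library left out. For Atf5, Ddit3 and Trib3 the call was lost under another alternative too. The resting and KCl libraries overlapped for Ddit3.

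Among 24 chaperones, Hspa5, the Hsp70 of the endoplasmic reticulum, rose from 1009, 1125 and 1089 CPM to 2103, 1825 and 2607 CPM (log2 1.02 ± 0.19). Dnajb9, a cochaperone of Hspa5, rose by 1.52 ± 0.27. Hspa8, the constitutive cytosolic Hsp70, fell by 0.78 ± 0.18, a call lost without KCl library 3, resting library 3, or replicate 2 or 3, and with the replicate block on the 6 libraries alone. The heat-inducible Hspa1a and Hspa1b gave 0.42 and 0.48 and did not pass, and the list's median was 0.09. The genes Hspa1a and Hspa1b are nearly the same in sequence, which leaves the split of reads between them uncertain.

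Of 22 genes of sterol synthesis, 2 rose (9.09%, against 1.88% of all genes tested), and the median log2 fold change was 0.56, with 20 of 22 positive. Hmgcs1, which makes HMG-CoA, rose by 0.87 ± 0.23 and Fdft1, squalene synthase, by 0.67 ± 0.19. Both calls were lost without replicate 1, 2 or 3, without any 1 of the resting libraries, and with the 6 pulldowns alone, with or without the replicate block. The count was 8 by DESeq2, 7 with the replicate block on 24 libraries, 5 by the likelihood ratio test, 4 with the length trend removed and 1 without a filter on low counts.

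The nuclear-encoded subunits of the respiratory chain had positive log2 fold changes for 73 of 74 genes, with a median of 0.52 and 6 calls (8.11%, against 1.88% of all genes tested that were higher). The 6 were Ndufa3 (0.81), Ndufa9 (0.64), Sdhc (0.61), Sdhd (0.76), Cox6a1 (1.04) and Atp5j2 (0.89). Their CDSs are short, and with the length trend removed the median was 0.26 with 2 calls. Without KCl library 1 there were 14 calls, and without KCl library 3, resting library 1 or 3, or replicate 2 or 3 there were 0. DESeq2 gave 13 calls and the replicate block on 24 libraries 12, while the 6 pulldowns alone gave 1, or 2 with the block. The 13 protein genes of the mitochondrial genome, which mitochondrial ribosomes translate, gave log2 fold changes from 0.67 (mt-Nd1) to 1.57 (mt-Nd6), with a median of 1.23 and 0 calls. The fits with all 24 libraries gave 0 to 3 calls, among them 3 by DESeq2, 3 by the likelihood ratio test and 2 with the replicate block. The 6 pulldowns alone gave 2 calls, and 5 with the replicate block. Without KCl library 3 there were 3. Their summed level was 3493, 6358 and 4452 CPM in resting libraries 1 to 3 and 12706, 12148 and 5048 CPM in KCl libraries 1 to 3. KCl libraries 1 and 2 were high and KCl library 3 lay within the resting range. On the log2 scale the 3 same-numbered pairs gave 1.86, 0.93 and 0.18.

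Histone genes had a median of 0.64 over 16 genes with 1 call (6.25%, against 1.88% of all genes tested that were higher). This was H2afz (1.19 ± 0.29), a replication-independent variant. Its call was lost without replicate 1, 2 or 3, without KCl library 3 and without any 1 of the resting libraries. With the trend with CDS length removed the list's median was 0.35, with 2 calls. Without KCl library 1 the list had 5 calls. Their summed level was 588 to 892 CPM at rest and 519, 1318 and 1731 CPM after KCl, with KCl library 1 below and the others above the resting range. Many histone genes have near-identical coding sequences, so single members are uncertain.

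Of 45 initiation and elongation factors, 5 fell and 1 rose (13.3% called, against 5.03% of all genes tested), with a median of -0.03. Eef2, which moves the ribosome along the mRNA, fell 2.36-fold, from a mean of 3121 ± 322 to 1323 ± 147 CPM. Eef1a1 and Eef1a2, which bring aminoacyl-tRNA, fell by 1.41 ± 0.24 and 0.91 ± 0.16 on the log2 scale. Pabpc1, the cytoplasmic poly(A)-binding protein, fell by 1.76 ± 0.23, from 142, 174 and 155 CPM to 35.1, 45.6 and 57.6 CPM. Eif3f fell by 0.97, and Eif4ebp1, which holds back the cap-binding protein eIF4E, rose by 1.45. Eif4ebp1 had overlapping groups, and its call was lost in 6 of 9 fits with 1 replicate or library left out, with the 6 libraries alone and with the trend with CDS length removed. Eif3f lost its call without replicate 2 or 3. These elongation factors and Pabpc1 are known for mRNAs that begin with a 5′ terminal oligopyrimidine tract, as are the ribosomal proteins. Of 76 ribosomal protein genes tested, 38 had positive and 38 negative log2 fold changes, and the median was 0.005. In this list 2 genes fell, Rpl3 (-1.28) and Rpsa (-1.03). That share, 2.63%, was near the 3.15% of all genes tested that were lower. With the trend with CDS length removed the list's median was -0.31, with 2 lower. The part of the tract in these changes was not tested. Without KCl library 1, resting library 2, or replicate 1 or 2 neither passed, and the list's median moved between -0.40 and 0.23 as single replicates or libraries were left out. Processed copies of these genes in the genome make their counts uncertain.

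The genes that fell were not led by a single list. Apba1, an adaptor of presynaptic and amyloid precursor protein trafficking, had the smallest p, with 217, 281 and 239 CPM at rest and 63.1, 54.9 and 49.4 CPM after KCl (log2 -2.14 ± 0.23, SE; edgeR adjusted p = 5.89e-07). Mapk6, the atypical MAP kinase ERK3, had the largest fall among all calls, from 75.8, 86.4 and 81.7 CPM to 10.3, 10.6 and 5.58 CPM (log2 -3.19 ± 0.35). Wwp1, a ubiquitin ligase, fell 7.18-fold from 26.1 ± 5.14 CPM. In each of the 3 genes every KCl library was below every resting one. Dgkd, a diacylglycerol kinase, fell 2.83-fold, Dnmt3a, a de novo DNA methyltransferase, 2.43-fold, and Adamts15, a protease of extracellular proteoglycans, 3.25-fold. Pcdh20, a protocadherin, fell 3.75-fold. The CDSs of Apba1, Adgrl1, Dgkd, Eif2ak3, Hmgcs1, Hs3st2, Kcnj3 and Ndufa9 overlap exons of other genes on the other strand and that of Cacng8 an exon of Gm23450 on the same strand, and the sources do not state whether counting used strand.

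Among adhesion GPCRs and regulators of GPCR signalling, 4 of 19 fell (21.1%, against 3.15% of all genes tested) and 0 rose, with a median of -0.28. Adgrl1, the latrophilin receptor, had 513, 554 and 583 CPM at rest and 159, 171 and 119 CPM after KCl (log2 -1.88 ± 0.21). Grk2, a kinase that desensitizes GPCRs, fell 4.18-fold, Adgrb2 by 1.38 and the G protein subunit Gnb1 by 0.79 on the log2 scale. Without replicate 3, 2 of the 4 passed. Among enzymes of heparan sulfate synthesis, 3 of 20 fell (15%, against 3.15% of all genes tested), and 1 without replicate 1, 2 or 3. Adgrl1, Grk2 and Hs3st1 are also among the 12 genes named for the smallest p of those that fell. Hs3st1, a sulfotransferase, fell 4.85-fold from 44.9, 56.6 and 52 CPM to 8.86, 12 and 10.1 CPM, Hs3st2, a related enzyme, by 1.37 and Ext1, which extends the chain, by 1.19 on the log2 scale.

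Among channel subunits that set excitability, 4 of 32 fell and 1 rose (15.6% called, against 5.03% of all genes tested), with a median of -0.27. The gene that rose is not reported here, and its call held in 1 of 9 fits with 1 replicate or library left out, that without KCl library 1, and not with the 6 libraries alone. The 4 falls became 2 without KCl library 2, resting library 1 or 3, or replicate 1, and 1 without replicate 2 or 3. Kcna4, a potassium channel of A-type currents, had 56.7, 37.2 and 56 CPM at rest and 18.8, 15.7 and 10.1 CPM after KCl (log2 -1.76 ± 0.26). Kcnj3, an inward rectifier opened by G proteins, fell by 1.02, and the calcium channel subunits Cacna2d1 and Cacnb3 by 0.98 and 0.84. Kcnj4, another inward rectifier that was named for its p rather than for this list, fell 3.65-fold, from 154, 172 and 166 CPM to 43.2, 57.9 and 32.5 CPM. For each of the channel genes named here as having fallen, all 3 KCl libraries were below the resting range.

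In receptors and scaffolds of the glutamatergic synapse the share of calls was 5.0% to 7.69% per list, near the 5.03% of all genes tested. Of 20 AMPA, kainate and NMDA receptor genes and their auxiliary subunits, Cacng8 alone passed, with 68.4, 73.9 and 68.8 CPM at rest and 17.7, 54.5 and 19.3 CPM after KCl (log2 -1.16 ± 0.34). KCl library 2 was higher than the others, and the call was lost in 7 of 9 fits with 1 replicate or library left out. Of 26 postsynaptic scaffold and signalling genes, Baiap2, a regulator of spine actin, rose by 1.08 ± 0.25 and Dlgap3 fell by 0.97 ± 0.27. The first call was lost in 4 and the second in 8 of the same 9 fits. Of 30 presynaptic genes, Apba1 and Rims1, an active zone scaffold, fell, the latter from 233, 230.4 and 239.7 CPM to 107, 119 and 131 CPM. The call for Rims1 was lost without replicate 1 or 2. The medians of these 3 lists were 0.03, -0.25 and -0.21.

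Dlg4, which encodes PSD95, had 40.5, 41.2 and 51.5 CPM at rest and 17.7, 27.6 and 22.8 CPM after KCl. The groups did not overlap, but the fit gave a log2 fold change of -0.95 ± 0.63 with an edgeR adjusted p of 0.4622. That error was estimated over all 24 libraries, those of cultures with a ligase fused to PSD95 included, and not over these 6 values alone. The CDS counted for Dlg4 was 822 nt long. Eif4g2, an initiation factor that works without binding eIF4E and that the study examined, gave 0.28 ± 0.19 (421 ± 20.1 CPM at rest and 510.2 ± 91.3 CPM after KCl, edgeR adjusted p = 0.4742).

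The same comparison in the inputs, which hold all ribosomes of the same cultures, called 527 genes (4.05%), and in the TurboID-PSD95 pulldowns, in which the ligase is fused to the postsynaptic scaffold PSD95, it called 855 (6.58%). All 24 genes named for the smallest p also passed in both, in the same direction. Of the 244 genes higher in Pan-TurboID pulldowns, 118 (48.4%) were also called higher in the inputs, where they were 73.8% of the 160 higher calls (1.23% of genes tested). In the TurboID-PSD95 pulldowns 157 (64.3%) were called higher, 36.6% of the 429 there (3.3% of genes tested). Of the 410 lower genes, 243 (59.3%, and 66.2% of the inputs' 367) and 264 (64.4%, and 62% of the 426) were shared, where 2.82% and 3.28% of genes tested were lower. No gene was called in opposite directions. Of the 654 calls, 65 higher and 93 lower genes passed in neither of the other sets, which by itself does not show that their responses differed. The Pan-TurboID pulldowns shared no library with either set, but pulldowns and inputs came from the same cultures.

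The test of the difference itself called 0 genes (0.0%) between the responses of pulldowns and inputs, where 124 genes had an unadjusted p under 0.05 by edgeR's quasi-likelihood test. By edgeR's likelihood ratio test and by DESeq2 the count was also 0, with 185 and 157 genes at an unadjusted p under 0.05. An input and a pulldown of the same number are parts of 1 preparation, which this test treats as independent. With the culture as a block, a fit chosen after seeing the data, the median SE went from 0.468 to 0.353 on the log2 scale and the quasi-likelihood test again called 0 genes, with 329 at an unadjusted p under 0.05, or 523 with the 12 Pan-TurboID libraries alone. The likelihood ratio test with this block called 1 gene, Col24a1, as lower. Between Pan-TurboID and TurboID-PSD95 pulldowns, which come from different cultures, the count without a block was 0 as well (0.0%), with 241, 341 and 306 genes. Each of these counts at an unadjusted p under 0.05 was a share of the genes tested smaller than 0.05. A share of 0.05 is what a well-scaled test gives where no responses differ, so these tests may be too cautious. Without the block the smallest p against the inputs belonged to Col24a1, a collagen gene with 3.69, 0.947 and 3.02 CPM at rest and 0, 0.385 and 0 CPM after KCl, near the limit of detection (edgeR adjusted p = 0.9999). Against TurboID-PSD95 it belonged to Pcp4l1, with 1.27, 3.55 and 1.89 CPM at rest and 3.54, 1.23 and 4.82 CPM after KCl. In the quasi-likelihood fit with the culture block the smallest p belonged to Actc1, which differed from the input response by 1.43 ± 0.38 on the log2 scale. Egr1, Klf10 and Ier2, members of the immediate early list, had larger p. Their differences were 0.76 ± 0.22, 1.00 ± 0.31 and 0.81 ± 0.25. Bccip and Rpl3, also among the smallest p of that fit, gave -1.60 ± 0.45 and -0.92 ± 0.30. Each of these genes had an edgeR adjusted p of 0.9993. For Arc the pulldown response exceeded the input response by 0.60 ± 0.39 (0.62 ± 0.30 with the culture block) and the TurboID-PSD95 response by 0.60 ± 0.39 on the log2 scale (SE). The p that misses the threshold does not show that the responses were alike, and these errors leave room for differences of that size.

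**Figure D3:**
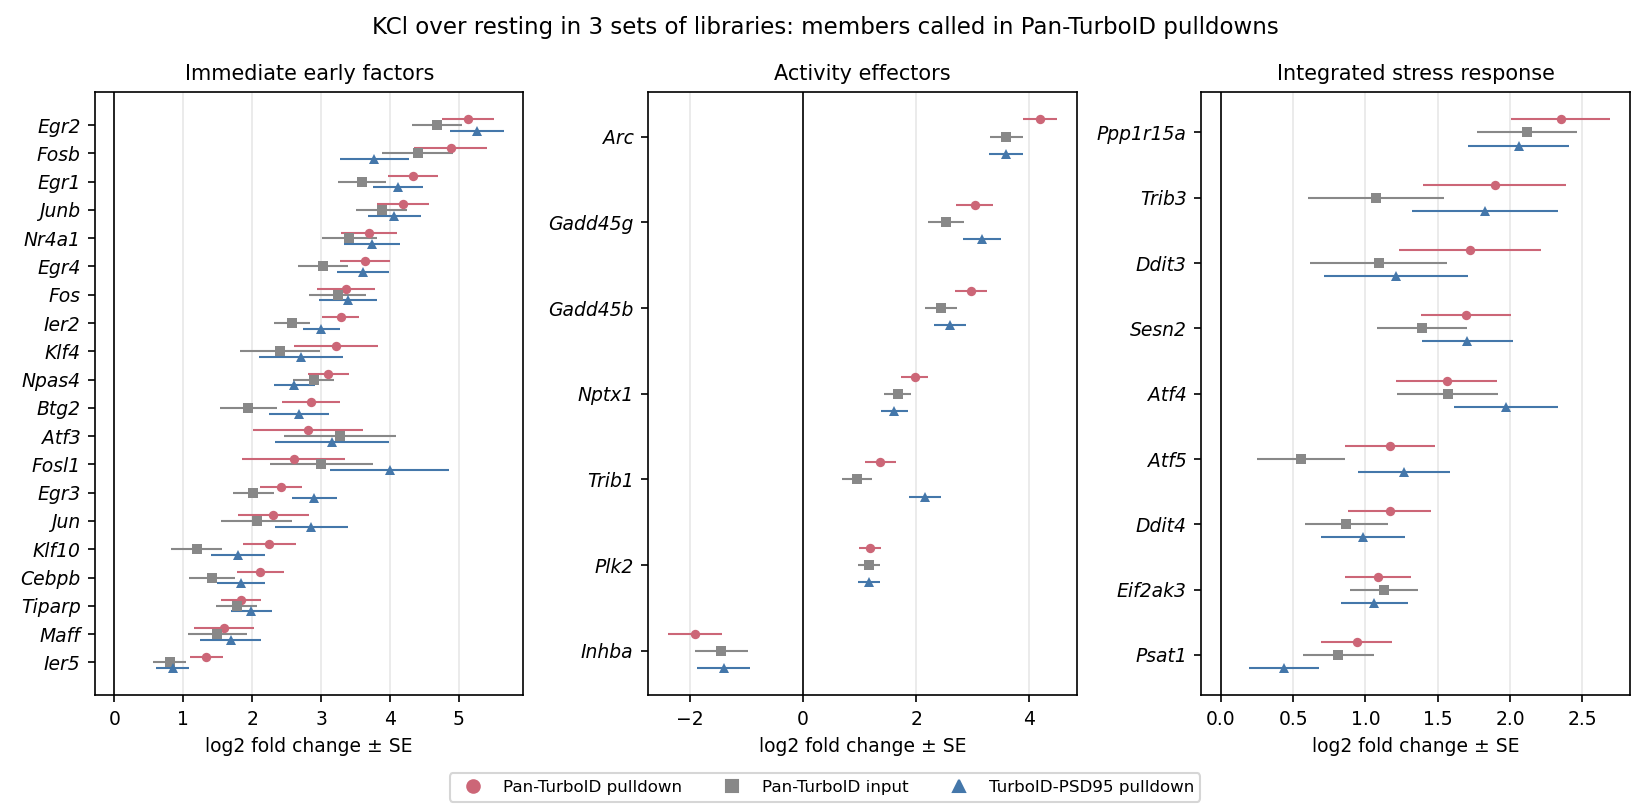
The log2 fold change (KCl over resting, ± SE) of the members of 3 lists that were called in Pan-TurboID pulldowns, in these pulldowns (red circles), in their inputs (grey squares) and in TurboID-PSD95 pulldowns (blue triangles). Every gene shown lies on the same side of 0 in the 3 sets. Arc has 4.20, 3.59 and 3.59, and Ppp1r15a 2.35, 2.12 and 2.06. Genes were chosen by the first set, so differences in size between the sets are not a test.

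For the lists, the responses of the 3 sets are given side by side. Of all genes tested, 1.88% were higher in Pan-TurboID pulldowns, 1.23% in the inputs and 3.3% in TurboID-PSD95 pulldowns. The counts below are to be read against these shares. Immediate early factors had medians of 1.98 in Pan-TurboID pulldowns, 1.46 in the inputs and 1.82 in TurboID-PSD95 pulldowns, with 20, 18 and 22 genes higher of 34. The stress response list had 0.93, 0.86 and 0.84, with 9, 5 and 7 genes higher of 20. The respiratory chain list had 0.52, 0.46 and 0.77, with 6, 2 and 20 genes higher of 74. The mitochondrially encoded genes had medians of 1.23, 1.33 and -0.07, with 0, 2 and 0 genes higher of 13. In their inputs and in the TurboID-PSD95 pulldowns the same-numbered pairs of their summed level gave 2.33, 1.17 and -0.13, and 0.73, -0.82 and 0.09, on the log2 scale. The pairs were thus spread over both signs in these sets, and no mitochondrially encoded gene passed the test of the difference.

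Footprints in 5′ UTRs were tested on the same transcripts with the library sizes of the CDS, so that a general shift would remain visible. Of 10147 genes tested, 13 were higher (0.128%) and 0 lower, and all 13 had also risen in the CDS. They were Arc, Atf3, Egr1, Egr2, Egr4, Fos, Fosb, Gadd45b, Gadd45g, Junb, Klf4, Rem2 and Tiparp. Rem2, a GTPase that limits calcium channels, was the 1 gene of these outside the lists used here. With the replicate number as a block 46 genes were higher, with library sizes of the 5′ UTR counts themselves 44 were higher and 13 lower, and DESeq2 called 43. Without replicate 1, 2 or 3 there were 14, 9 and 7 calls.

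The 5 genes with the smallest p were Fosb, Arc, Junb, Egr2 and Klf4. Arc had 5′ UTR counts of 4.27, 2.13 and 4.84 CPM at rest and 14.2, 80.3 and 130 CPM after KCl, which left KCl library 1 well below the other KCl libraries, although its CDS level was close to theirs. Klf4 had 0, 2 and 3 counts in the 5′ UTR at rest and 37, 147 and 36 after KCl, and its log2 fold change was 5.73 in the 5′ UTR and 3.22 in the CDS. In Egr1 the order was the opposite, with 2.53 in the 5′ UTR and 4.33 in the CDS, as in Egr2, with 3.71 and 5.13. Of the 13 genes, 7 had a smaller log2 fold change in the 5′ UTR than in the CDS. Reads were placed by their 5′ end with no offset, so a ribosome at the start codon adds to the 5′ UTR.

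The share of footprints in the 5′ UTR differed widely among the 18 stress response genes tested there, and in Slc3a2, an amino acid transporter subunit, it was 0.855% to 3.73% over the 6 libraries. The genes Atf4, Ppp1r15a, Ddit3 and Atf5, which are known for upstream open reading frames, were among those with high shares in both states. Ddit4 of the same list had 41.5% to 50.0% over the 6 libraries, and Fosb, outside it, 38.3% to 55.9%. The part of upstream open reading frames in these shares was not tested. In Atf4, whose upstream open reading frames hold back its CDS, 73.1%, 69.5% and 65.7% of the counts lay in the 5′ UTR at rest and 42.9%, 67.6% and 67.7% after KCl. KCl library 1 was low and the other KCl libraries lay within the resting range. The 5′ UTR level of Atf4 was 87.3, 147 and 100.0 CPM at rest and 125, 263 and 308 CPM after KCl, with overlapping groups (log2 1.06 ± 0.48, edgeR adjusted p = 0.9916), beside 1.56 in the CDS. In Ppp1r15a the shares were 49%, 54.1% and 57.2% at rest and 24.3%, 55.4% and 57.9% after KCl. In Ddit3 they were 65.4%, 62% and 59.9%, and 65.8%, 51% and 54.3%, and in Atf5 60.8%, 70.2% and 73.5%, and 47.9%, 71.7% and 74.7%. In each of these 4 genes the resting and KCl shares overlapped. None of the 18 stress response genes tested in the 5′ UTR passed, and their median log2 fold change was 0.99 beside 0.28 for all genes.

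**Figure D4:**
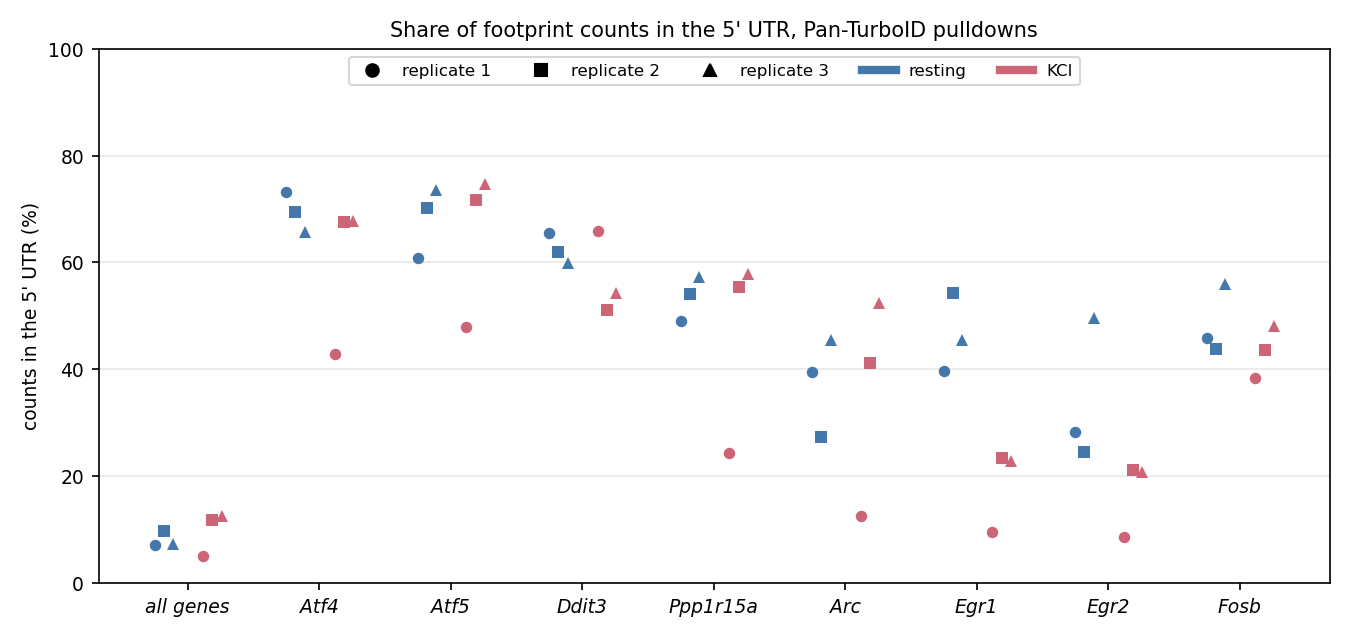
The share of footprint counts in the 5′ UTR (percent) in each of the 3 resting (blue) and 3 KCl (red) Pan-TurboID pulldowns, with symbols for the replicate, over all genes and for 8 genes. For all genes the share is of 5′ UTR, CDS and 3′ UTR counts together, and for single genes of 5′ UTR and CDS counts. The KCl libraries of Egr1 and Egr2 lie below their resting libraries, and KCl library 1 is the lowest of the KCl libraries in all but Ddit3.

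Over all genes, 6.98%, 9.73% and 7.24% of the counts lay in 5′ UTRs in resting libraries 1 to 3 and 4.94%, 11.8% and 12.5% in KCl libraries 1 to 3. The means were 7.98% ± 1.52 and 9.75% ± 4.18 (SD, n = 3 each) and the groups overlapped (difference 1.77 percentage points, two-sided exact permutation test, p = 0.5, where 0.1 is the smallest p that 3 against 3 allows). Without replicate 1 the difference was 3.67 percentage points, and without replicate 3 it was 0.0333. In the inputs of the same cultures the share was 18.2% to 21.3% at rest and 16.5% to 24% after KCl. Every Pan-TurboID pulldown library was thus below every Pan-TurboID input library.

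The KCl response went with CDS length. The genes tested were put in 5 length classes of about equal size. In the shortest class (20 to 711 nt) the median log2 fold change was 0.37, with 82 genes higher and 4 lower, and in the longest class (2574 to 106173 nt) it was -0.07, with 36 higher and 140 lower. The genes that rose had a median CDS of 1096 nt, those that fell 2119 nt and all genes tested 1389 nt. Across the 7697 genes whose mean log2 CPM reached 4, Spearman's rho between fold change and length was -0.335, a description over genes that share the same libraries. The medians of the shortest class were 0.29 in the inputs and 0.54 in TurboID-PSD95 pulldowns. With each library's trend with length removed, 661 genes were called, 330 higher and 331 lower, and 505 of the 654 calls were kept. The 24 genes named for the smallest p passed in this fit and in each of the other 18 alternatives.

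**Figure D5:**
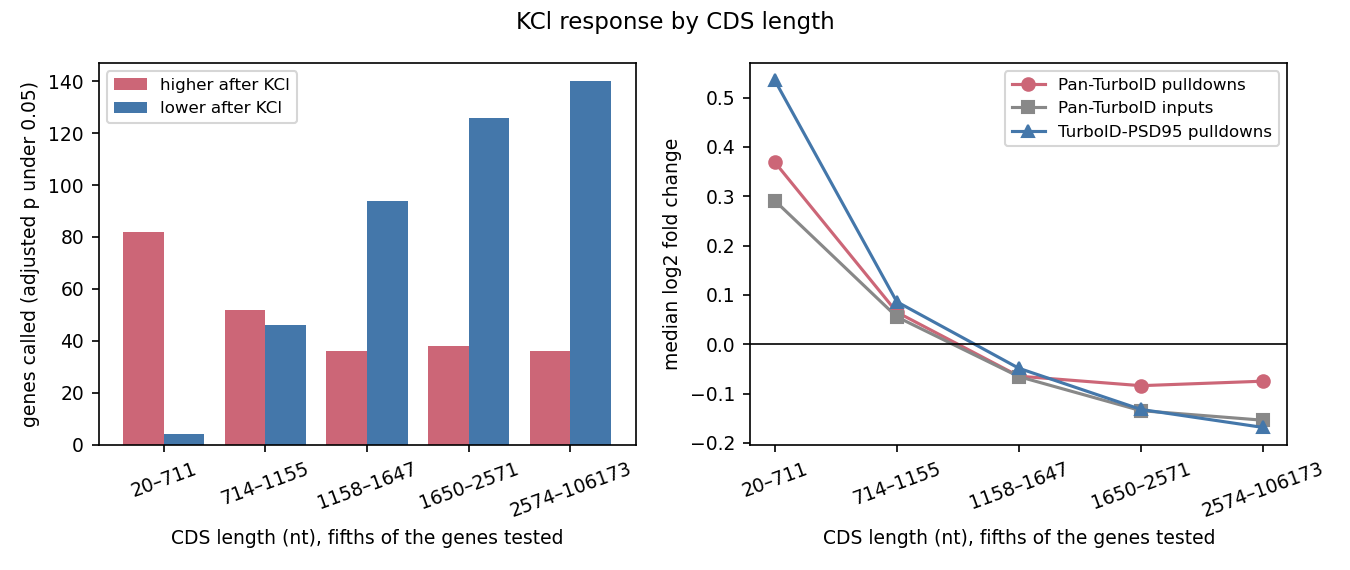
Left, the number of genes called higher (red) and lower (blue) after KCl in Pan-TurboID pulldowns by 5 classes of CDS length (nt). Right, the median log2 fold change of each class in Pan-TurboID pulldowns, their inputs and TurboID-PSD95 pulldowns. The lower calls go from 4 in the shortest class to 140 in the longest, and the higher calls from 82 to 36.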

How the data were processed

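Ribosome footprints were measured in 24 libraries of the KCl experiment, 3 biological replicates in each of 8 groups. According to the study's methods, the authors trimmed reads, separated pooled libraries, removed 6-nt molecular identifiers, aligned reads over 20 nt to mm10 with Rsubread and counted 5′ ends with plastid per segment of UCSC known genes, with no offset and with read lengths of 25 to 100 nt per the file headers. Alignment file names mark removal of ribosomal RNA and duplicates. Duplicate removal can flatten strongly translated short regions. The versions of Rfastp and plastid, the use of strand and the handling of reads with several alignments are not given in the sources used here. The deposited values are whole-number counts, which were read from the longest transcript of each gene, separately for CDS and UTRs. A gene symbol was found for 66750 (99.3%) of the 67238 coding transcripts in the files, which gave 22443 genes. Coordinates are mm10.

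The test was that of edgeR 4.0.16 under R 4.3.3 (quasi-likelihood F test, robust, TMM, filterByExpr, Benjamini-Hochberg, FDR 0.05), with 24 libraries and 8 group means. 5′ UTR counts used the CDS library sizes. CPM values were scaled by the TMM-adjusted CDS library size. Errors beside log2 values are standard errors. Alternatives were edgeR's likelihood ratio test (in the study, used for dendritic translation within a condition), DESeq2 1.42.0, RLE scaling, other filters and transcripts, removal of the CDS length trend, the replicate block, left-out replicates and, added after seeing the data, the culture as a block for pulldowns against inputs, since the methods state that inputs were set aside from the same monosomes. Scripts were checked on simulated counts. Replicate numbers pair the samples, since the methods state that resting and activated samples of a replicate were handled together and same-numbered libraries share 1 alignment folder per the file headers. Deviations from the group means correlated by 0.062, 0.219 and -0.144 in the same-numbered pairs. No pair of replicates agreed within sampling noise.

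Named genes are the 12 per direction of lowest p whose 3 pairs all moved that way, the 5 with the smallest p in the 5′ UTR test, the 1 gene with the smallest p where none passed, Dlg4, Eif4g2 and members of 24 lists. The libraries, lists and rules were chosen with earlier results of these data known, so they are not independent evidence. P-values measure the spread between 3 cultures per group, which the main test estimated for each gene over all 8 groups of 24 libraries. Inputs and pulldowns of the same culture enter that estimate as independent libraries. Results for some list members are not reported here. Figures were drawn with matplotlib 3.10.9 in Python 3.11.15.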

Additional observations from a re-analysis of the deposited data

How the results depend on the processing

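None of the 24 genes named for the smallest p, the 64 other list members called in the CDS or the 13 genes called in the 5′ UTR changed direction under an alternative, and the 24 genes named for the smallest p kept their call in all 19. The 654 CDS calls (244 higher, 410 lower) became 1043 with DESeq2, 447 with the 6 pulldowns alone and 424 with the replicate block and these 6 alone. With the replicate block and 24 libraries they became 981 (406 higher, 575 lower), with the likelihood ratio test 908, with RLE scaling 654 (268 higher, 386 lower), without a filter 556, with a filter of 1 CPM 669 and with the transcript of the highest count 696. Leaving out a replicate in both conditions gave 199 to 266, and leaving out 1 library 309 to 559. The 5′ UTR calls went from 13 to 57 with own library sizes, 21 with the likelihood ratio test, 43 with DESeq2 and 46 with the replicate block, and to 7 to 14 without 1 replicate. The tests of a difference between responses gave 0 calls under each alternative, except 1 call against the inputs by the likelihood ratio test with the culture as a block. The 5′ UTR share differed by 1.77 percentage points with the genes of the CDS test, by 1.68 with the transcript of the highest count, and by 0.0333 to 3.67 without 1 replicate. Of 64 further list members called in the CDS, 44 lost their call in at least 1 fit with a replicate or library left out and 22 under another alternative, and of the 13 genes called in the 5′ UTR 6 did so without 1 replicate. The pairing changed no call among the 24 genes. The cause of these shifts was not tested. Depth limits genes of few counts, such as Col24a1 and Klf4 at rest.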
